A study of Mus musculus with 24 samples.

Results

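Activation of splenic conventional CD4+ T cells (Tconv, CD4+ CD25-) that carry the mtDNA of C57BL/6J was described across all genes from 12 of the 24 Tconv libraries analysed, 6 of resting and 6 of activated cells. The members were the libraries whose labels give the genotype WT, the cell code TE and the treatment RES or ACT. Legends of the study's expression figures give a smaller n per model than the 6 libraries per group used here, without naming them. The donors were the mtDNA-B6 arm of a pair of conplastic strains that share the C57BL/6J nuclear genome, so they had neither a transgene nor a foreign mtDNA, and the other 12 libraries came from mice with the mtDNA of NZB. CD4+ spleen cells were enriched by magnetic removal of other cells and depleted of CD25+ cells, and the activated group received CD28/CD3ε beads together with IL-2 for 72 h, as the study's methods state. They do not say whether resting cells were cultured, so the effects of the beads, of the added IL-2 and of time in culture cannot be told apart. Nothing states that the 6 libraries of a group came from separate mice, and p-values then measure only the spread between these libraries.

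A naive or resting CD4+ T cell is small and quiescent. Engagement of the T cell receptor together with CD28 makes it express the high-affinity receptor for interleukin 2, enter the cell cycle, turn to aerobic glycolysis and acquire cytokines and other effector proteins. Immediate-early genes such as *Fos* and *Egr1* answer within minutes of many stimuli, whereas the proliferative programme takes days to build.

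Bulk MARS-seq reads the 3′ end of polyadenylated RNA and counts each tagged molecule once by its unique molecular identifier (UMI). Resting libraries held 2615906 to 5456681 UMI counts and activated libraries 2430562 to 4452880. Levels of genes are given here as counts-per-million (CPM) after TMM scaling, and changes as log2 fold changes of activated over resting cells with their standard error. The first principal component, with 70.8% of the variance, separated all 6 resting from all 6 activated libraries, and the second held 6.7%. By the ratio of the second, larger count table to the UMI table, the libraries fell into 3 sets. Of the activated libraries, 5 had 1.88 to 1.94 reads per UMI, and no resting library lay in that set. Resting libraries 1 to 4 and activated library 5 had 2.13 to 2.24, and resting libraries 5 and 6 had 2.70 to 2.73. The state and the set were therefore largely confounded.

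The 4 marker genes of activation were higher in every activated library than in any resting library. They were chosen with earlier results of these data known, so this describes the libraries and does not test activation. Over all 10041 tested genes, 32.1% had groups without overlap. *Il2ra* (chromosome 2, 11647618 to 11698004 of GRCm39), which encodes CD25, ranged from 1.91 CPM through a median of 3.22 to 4.10 CPM at rest and from 42.3 through 77.0 to 119 CPM after activation (log2 fold change 4.67 ± 0.31, adjusted p = 1.78e-08). CD25+ cells had been depleted beforehand, so the low resting level of this gene is a description of the selected cells. *Ccl22* (chromosome 8, 95471226 to 95478327), a chemokine that attracts CCR4+ cells, had 0 to 3.96 CPM at rest and 47.9 to 149 CPM after activation (5.44 ± 0.35, adjusted p = 1.44e-08). *Gzmb* (chromosome 14, 56496295 to 56499717), the protease granzyme B, had a median of 17.8 CPM at rest with 119 CPM in resting library 5, and 377 to 1856 CPM after activation (4.43 ± 0.58, adjusted p = 1.27e-05). *Top2a* (chromosome 11, 98883769 to 98915062), the topoisomerase of dividing cells, went from 56.0 to 148 CPM at rest to 414 to 719 CPM (2.62 ± 0.23, adjusted p = 3.58e-07). The lineage gene *Cd4* moved little beside them, with a median of 637 CPM at rest and 564 CPM after activation (-0.23 ± 0.09, adjusted p = 0.0512), and its ranges overlapped. Of the 7 markers of T cell identity, none was called, while 3 were higher and 1 lower by the adjusted p alone.

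**Figure D1:**
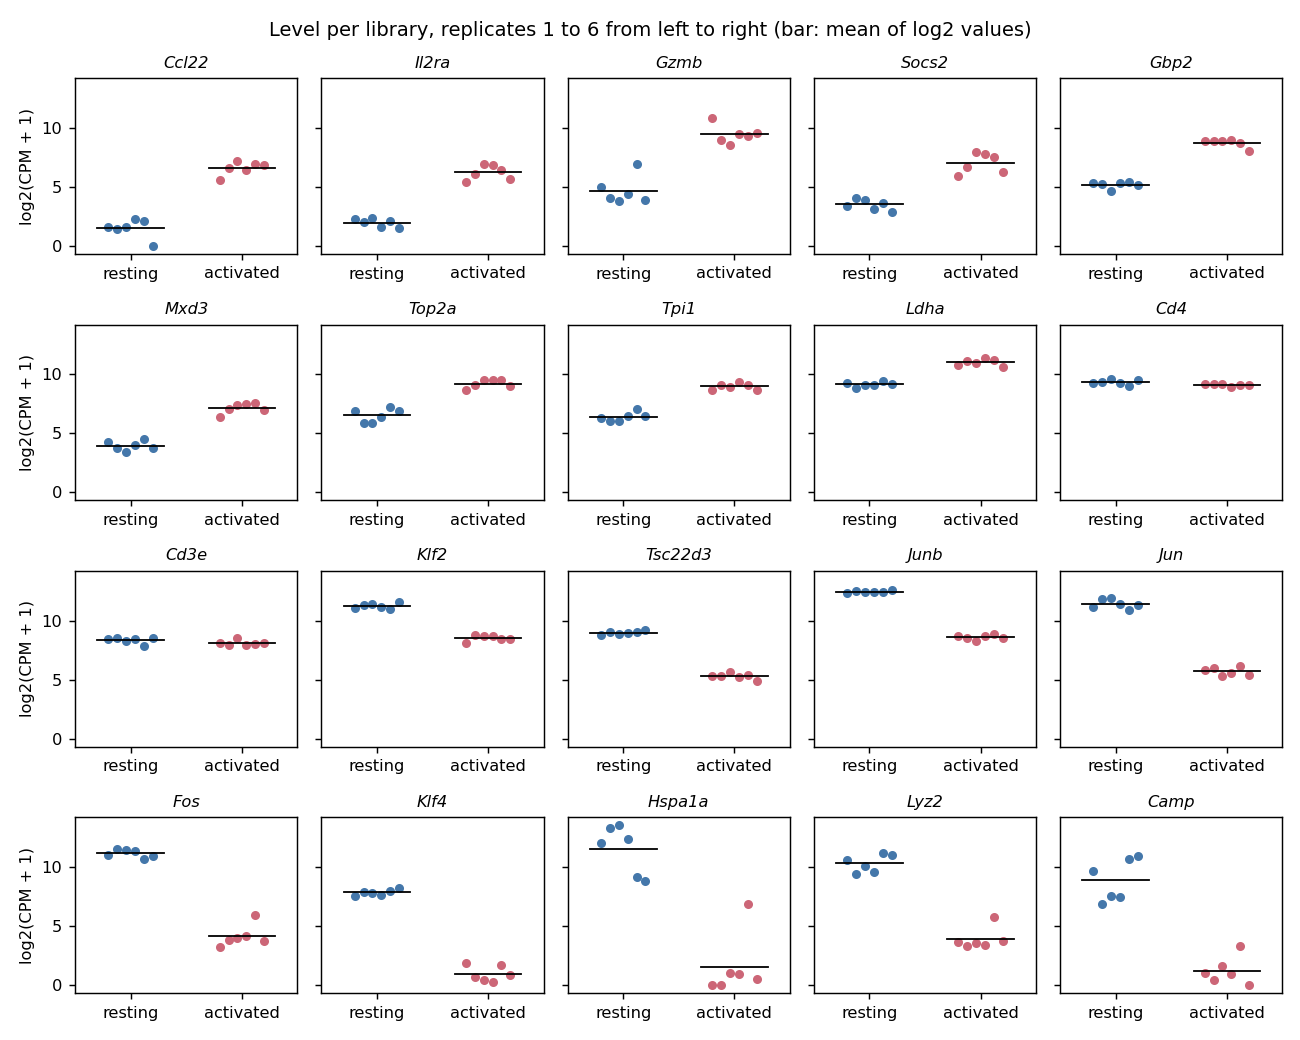
Level of 20 genes in each library, as log2(CPM + 1) on the vertical axis, with the 6 resting (blue) and 6 activated (red) libraries of each panel in replicate order and the mean of the log2 values as a bar. The 9 genes from *Ccl22* to *Ldha* sit higher in all activated libraries, *Cd4* and *Cd3e* overlap, and the 9 genes from *Klf2* to *Camp* sit lower.

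Of 10041 genes tested, 667 rose (6.64%) and 988 fell (9.84%) by edgeR's quasi-likelihood test, with calls set at a 2-fold change and a Benjamini-Hochberg adjusted p of 0.05. By the adjusted p alone, 27.3% of the genes were higher and 29.6% lower, and for 32.1% the 6 resting and 6 activated libraries did not overlap. The falls were larger than the rises. 132 genes fell and 6 rose by 4 or more on the log2 scale, and the median over all tested genes was -0.03. Of the genes that rose, 192 were members of the 36 function lists used here, 10 were markers of other cells and 467 were in no list. Among the genes that fell, the numbers were 87, 47 and 854. The marker lists are short, and *Igha*, described below with the plasma cell genes, was in no list. The 47 are therefore not a full count of genes of other cells. Within the library set that held both states, 4 resting libraries and 1 activated library, 662 of the 667 rises and 986 of the 988 falls had the same sign. These libraries are among the 12 that made the calls, so the shared signs are no separate support. Of the 1655 called genes, 1393 had groups without overlap, for which a subset can hardly differ in sign. Calls in that set, here and below, rest on 1 activated library. Among the genes described below as rising or falling, several were not called in that set. *Havcr2* (1.67), *Ccr6* (1.21), *Ccl9* (-2.13), *Cr2* (-3.82), *Lmna* (-1.10) and *Tox2* (-1.14) stayed past 2-fold there with adjusted p of 0.056 to 0.121. *Bcl2l11* (0.95), *Cxcr3* (0.89), *Gimap7* (0.86), *Imp4* (-0.92) and *Slc3a2* (-0.95) passed the adjusted p there but were under 2-fold. *Trib3* (0.87, adjusted p = 0.114), *Stat4* (0.44, 0.482), *Bmf* (-0.71, 0.293) and *Fpgs* (-0.84, 0.0563) passed neither limit. *Tnf*, *Ccl4*, *Gapdh*, *Rps27*, *Egr3* and *Ms4a1* were not called there either. With library set as a term over 24 libraries, which include the same 12, 667 and 986 had the same sign, and 580 and 821 were called.

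**Figure D2:**
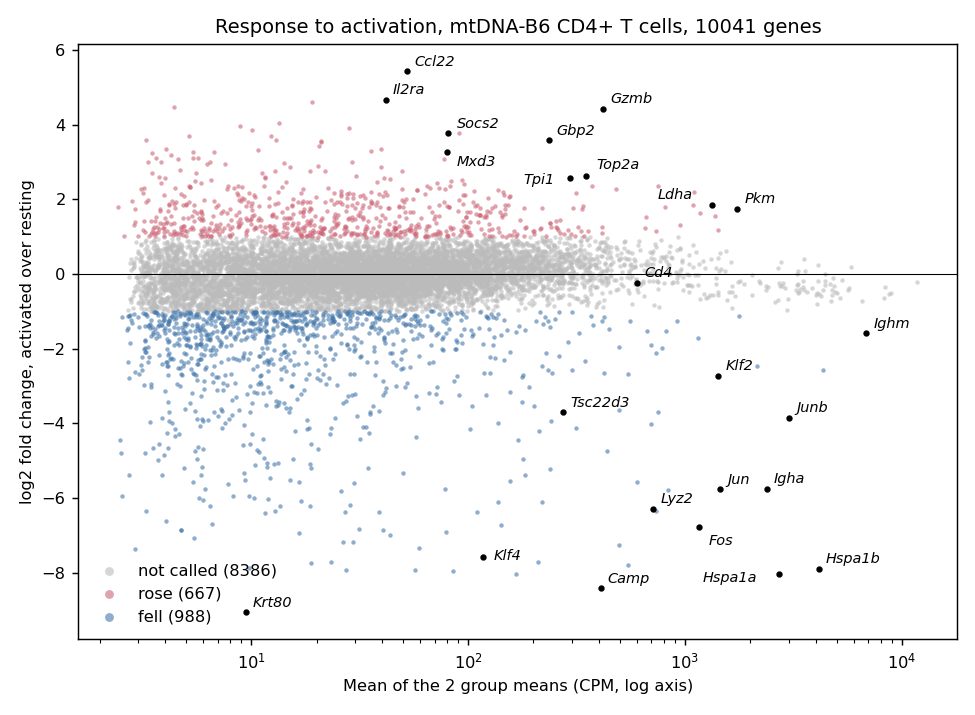
Log2 fold change of activated over resting cells (vertical axis) against the mean of the group means in CPM (log axis) for 10041 genes, with the 667 that rose in red, the 988 that fell in blue and the rest in grey. Rises stop near the log2 change of 5.44 of *Ccl22*, whereas falls reach beyond -8, among them *Camp* and *Hspa1a*.

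Of 22 receptors of costimulation and inhibition, 21 were tested, 9 rose and 1 fell, with a median of 0.53. *Il2rb*, the β chain that completes the high-affinity receptor, had 115, 121 and 129 CPM at rest (lowest, median, highest) and 489, 606 and 765 CPM after activation (2.36 ± 0.11). The costimulatory TNF receptors *Tnfrsf4* (OX40, 2.23 ± 0.22), *Tnfrsf9* (4-1BB, 2.31 ± 0.13) and *Tnfrsf18* (GITR, 1.78 ± 0.13) rose, as did *Icos* (1.62 ± 0.28). Among inhibitory receptors, *Lag3* rose from a median of 11.0 to 65.9 CPM (2.88 ± 0.38) and *Havcr2* (TIM-3) from a median of 1.27 to 4.71 CPM (1.97 ± 0.47). *Pdcd1* (0.23 ± 0.24, adjusted p = 0.431) and *Ctla4* (0.33 ± 0.24, adjusted p = 0.26) were not called, and their libraries overlapped. *Cd69*, which retains T cells in tissue and is known as an early activation marker, was the member that fell. It had 23.0 to 110 CPM at rest and a median of 3.92 CPM, at most 11.0 CPM, after activation (-3.74 ± 0.49).

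Of 27 interleukin receptor and SOCS feedback inhibitor genes, 25 were tested, 7 rose and none fell, while by the adjusted p alone 13 were higher and 6 lower. By that measure 27.3% of all tested genes were higher and 29.6% lower. Within the library set that held both states 7 rose and 3 fell. *Il12rb2*, the inducible chain of the IL-12 receptor, had 0 to 2.01 CPM at rest and 7.33 to 26.7 CPM after activation (3.97 ± 0.40), and its partner *Il12rb1* had medians of 14.0 and 57.1 CPM (2.20 ± 0.15). *Socs2* rose from a median of 10.6 to 145 CPM (3.78 ± 0.37) and *Cish* from 33.8 to 158 CPM (2.13 ± 0.30). Both are induced by STAT5 downstream of interleukin 2, which was added to the activated cultures. No library overlapped between the groups for these 4 genes, as for 32.1% of all tested genes. The rule for the largest rises required this of *Il12rb2* and *Socs2*. The receptors of resting cells pointed down without reaching the 2-fold limit: *Il7r* had a change of -0.98 ± 0.16 and *Il6ra* of -0.99 on the same scale.

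Effector genes were divided. Of 15 cytotoxic granule genes, 10 were tested and 4 rose, *Gzmb*, *Gzmc* (3.53 ± 0.58), *Gzma* (3.08 ± 0.48) and *Serpinb6b* (1.55), with none falling. *Gzmb* and *Gzmc* are close relatives, so reads may be divided between them. *Prf1*, the pore-forming perforin, was not called (0.60 ± 0.39, adjusted p = 0.204). Among 13 tested cytokine genes (24 listed), *Il13* rose from 0 to 3.76 CPM to 7.40 to 29.9 CPM (3.85 ± 0.47), *Lif* rose from a median of 3.43 to 19.3 CPM (2.77 ± 0.55), and *Lta* rose (1.07 ± 0.34). *Tnf* fell (-1.09 ± 0.18), but it was not called within the library set that held both states (-0.70, adjusted p = 0.0577). *Ifng* had 78.3 to 155 CPM at rest and 26.2 to 168 CPM after activation (-0.67 ± 0.37, adjusted p = 0.133), and *Il4* was near 6 CPM in both groups (0.21 ± 0.40, adjusted p = 0.675). The chemokines *Ccl22* and *Ccl1* (3.71 ± 0.59) rose, while *Cxcl10* (-1.51 ± 0.20) and *Ccl9* (-2.46 ± 0.44) fell. *Ccl4* was called (1.16 ± 0.43, adjusted p = 0.0321), but without activated library 1, which had 280 CPM against 38.8 in the lowest, its change was 0.50 and it was not.

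The genes of T cell traffic fell and rose in equal number, 3 and 3 of 16 tested, against 9.84% and 6.64% of all tested genes. *Klf2*, a transcription factor that keeps homing genes on in naive cells, fell from 2072, 2455 and 3092 CPM to 277, 382 and 439 CPM (-2.73 ± 0.13). *Cxcr4*, the receptor for CXCL12, fell (-3.17 ± 0.22), and so did *Itga4* (-1.48). *Ccr6* (1.91) and *Cxcr3* (1.08 ± 0.13), receptors of inflamed tissue, were among those that rose. The lymph node receptor *Ccr7* had medians of 592 and 477 CPM (-0.52 ± 0.15) and was not called, nor was the egress receptor *S1pr1*, with 226 and 148 CPM (-0.77 ± 0.14).

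Of 33 tested lineage factors (34 listed), 8 rose and 3 fell, with a median of 0.17. Over all tested genes 6.64% rose and 9.84% fell, so the share of falls was near that of all genes. *Tbx21*, the T-bet factor of type 1 helper cells, had 21.7, 25.9 and 31.8 CPM at rest and 48.3, 92.3 and 102 CPM after activation (1.67 ± 0.16). *Zbtb32* (1.77 ± 0.22), *Irf8* (1.27 ± 0.16) and *Stat4* (1.21) rose too. *Tox* (-1.69 ± 0.20), *Runx1* (-1.23 ± 0.10) and *Tox2* fell. *Gata3*, the type 2 factor, had 104 and 108 CPM as medians (0.08 ± 0.17, adjusted p = 0.703), and *Foxp3*, which defines regulatory T cells, 15.9 and 16.4 CPM (0.00 ± 0.22, adjusted p = 0.997).

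Of the 36 function lists, that of mitosis had the largest share of its tested members called. Of 60 genes of mitosis and chromosome segregation, 58 were tested, 55 rose and none fell, with a median change of 1.93 against -0.03 over all genes. *Nusap1*, a spindle protein, had a median of 12.4 CPM and at most 20.5 CPM at rest, and a median of 88.8 and at most 111 CPM after activation (2.75 ± 0.26). *Ccna2*, cyclin A, had 9.72, 25.6 and 42.5 CPM and 90.7, 149 and 183 CPM (2.48 ± 0.27). The kinases *Aurkb* (2.41 ± 0.25) and *Plk1* (2.11 ± 0.23), the activator of the anaphase-promoting complex *Cdc20* (2.13 ± 0.23) and its E2 enzyme *Ube2c* (2.17 ± 0.22) rose by similar amounts. The exception below 0 was *Pttg1*, securin, with 64.3 and 43.7 CPM as medians (-0.61 ± 0.10). Together the listed genes held 0.117% to 0.292% of the UMI counts at rest and 0.609% to 0.893% after activation.

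Of 42 replication genes, all tested, 24 rose and none fell, and 40 passed the adjusted p alone, with a median of 1.06. *Clspn*, a checkpoint adaptor at the fork (2.05 ± 0.20), and *Cdc45*, part of the replicative helicase (1.82 ± 0.24), changed most. The helicase subunit *Mcm5* had 86.5, 144 and 199 CPM at rest and 275, 360 and 471 CPM after activation (1.43 ± 0.18). *Pcna*, the sliding clamp, stayed just under the limit (0.99 ± 0.15), and the licensing factor *Cdt1* had 94.2 and 92.9 CPM as medians (-0.01 ± 0.16, adjusted p = 0.975). Without the 4 resting libraries of the set with 2.13 to 2.24 reads per UMI, 14 of the 42 rose, whereas 34 rose within the set that held both states and 27 with library set as a term.

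The G1 regulators included 12 rises and 2 falls among 26 tested, against 6.64% and 9.84% of all tested genes, with a median of 0.93. *E2f7* (2.59 ± 0.25) and *E2f2* (1.68), transcription factors of the E2F family, rose with *Ccne1*, cyclin E. The inhibitors of cyclin-dependent kinases went in different directions. *Cdkn2c* (1.76), *Cdkn1a* (1.54) and *Cdkn2a* (3.25 ± 0.35, medians of 0.532 and 6.08 CPM) rose, whereas *Cdkn1b*, the p27 protein of quiescent cells, fell from a median of 27.6 to 9.11 CPM (-1.68 ± 0.13). *Ccnd1* fell (-4.08 ± 0.43) from a median of 10.3 to 0.282 CPM, and the D cyclins of lymphocytes, *Ccnd2* (0.86 ± 0.15) and *Ccnd3* (0.42 ± 0.13), were not called. Of 26 genes of DNA methylation and chromatin assembly, 10 rose, led by *Asf1b* (2.27 ± 0.22), the histone chaperone, with *Ezh2* (1.82 ± 0.12), *Uhrf1* (1.80 ± 0.23) and *Dnmt1* (1.14 ± 0.15), and the methyltransferase gene *Kmt2d* fell (-1.27 ± 0.13). In the MYC and MAX network, *Mxd3* alone of 10 tested genes rose, from 9.57, 13.4 and 21.4 CPM to 83.3, 150 and 190 CPM (3.27 ± 0.22). *Myc* itself had 111, 119 and 180 CPM at rest and 60.5, 77.2 and 92.6 CPM after activation (-0.79 ± 0.14), and its libraries did not overlap.

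The promoters of the mitotic and replication lists differed in a pair of short motifs known from cell cycle genes. The cell cycle homology region was searched as TTTGAA and the E2F site as TTCCCGC, on both strands, in RefSeq sequence of GRCm38.p6 from 250 bases before to 50 after each start, for the first listed start of each symbol. A promoter was found for 48 of the 58 tested mitotic genes and 32 of the 42 replication genes. TTTGAA stood in 35 of the 48 mitotic promoters (72.9%) and 4 of the 32 replication promoters (12.5%), and in 12.2% of 7713 tested genes and 18.1% of all 27025 promoters. TTCCCGC stood in 14 of 32 replication promoters (43.8%) and 1 of 48 mitotic promoters (2.08%), against 8.95% of tested genes and 4.66% of all promoters. Over the whole response, TTTGAA was found in 28.5% of 492 promoters of genes that rose and 11.5% of 696 of genes that fell, and TTCCCGC in 12.4% and 5.75%. The genes that rose include 55 of the 58 mitotic and 24 of the 42 replication genes, so these shares are not separate from those of the lists. The windows that follow show the motif in capitals, in mitotic genes first and replication genes last, read 5′ to 3′ on the strand that carries it.
Cdc20, chr4:118437348-118437369, minus strand: agttgggtTTTGAAggagccaa
Ube2c, chr2:164769892-164769913, minus strand: cgcccgcgTTTGAAttgcaacc
Kif11, chr19:37376355-37376376, minus strand: gcctcaatTTTGAAaaatggag
Ccnb2, chr9:70421708-70421729, minus strand: gactagaaTTTGAAaataagac
Cdc6, chr11:98908005-98908027, minus strand: caggcgatTTCCCGCtctccacc
Chaf1a, chr17:56040361-56040383, plus strand: tgccgcggTTCCCGCcaaatacg
Prim1, chr10:128015192-128015214, plus strand: ctgtcttgTTCCCGCcaattctc
These coordinates are of GRCm38.p6, unlike the gene positions above. In the 4 mitotic genes the motif lay 15 to 164 bases before the start, and in the replication genes 12 to 134 bases before it. These windows were picked from the matches before the start. Of the matches kept, 1 a promoter, 18 of 35 in mitotic genes (TTTGAA) and 7 of 14 in replication genes (TTCCCGC) were centred after it. Of the genes shown, *Kif11* (2.43) and *Ccnb2* (2.19) rose by amounts like those of *Cdc20* and *Ube2c*, and *Chaf1a* (1.75), *Prim1* (1.23) and *Cdc6* (1.11) by less. A match is a description of the letters and not evidence of binding.

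Resting libraries were not alike in mitotic RNA, and they ordered much as their granulocyte precursor markers did. Resting libraries 1, 5 and 6 held 0.22%, 0.292% and 0.2% of their counts in the mitotic list and 0.201%, 0.221% and 0.165% in markers of granulocyte precursors. Libraries 2, 3 and 4 held 0.117%, 0.121% and 0.195% in the mitotic list and 0.0187%, 0.0442% and 0.0578% in those markers. Without libraries 1, 5 and 6, 55 mitotic genes again rose. What part precursor cells had in the resting level was not tested.

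**Figure D3:**
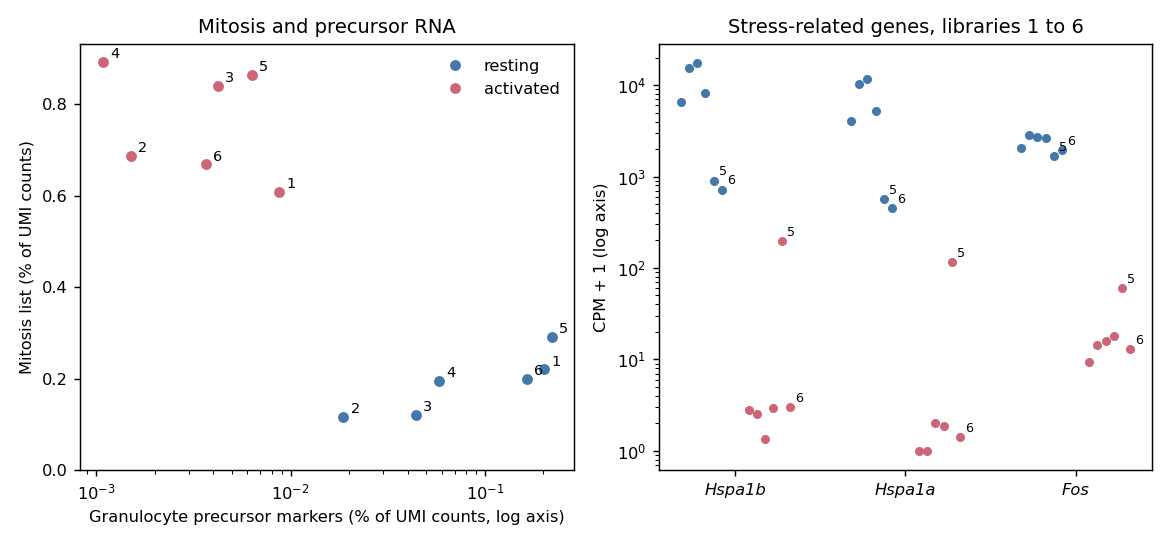
Left, share of UMI counts in the mitotic list against that in granulocyte precursor markers (log axis) for each numbered library, resting in blue and activated in red. Right, CPM + 1 (log axis) of *Hspa1b*, *Hspa1a* and *Fos* per library, where resting libraries 5 and 6 lie below libraries 1 to 4 in *Hspa1b* and *Hspa1a* and activated library 5 lies above the other activated libraries in all 3 genes.

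Glucose metabolism rose next to the cell cycle. Of 23 genes of glucose uptake and glycolysis, 21 were tested, 11 rose and 1 fell, with a median of 1.58. Their summed share of UMI counts was 0.226% to 0.393% at rest and 0.897% to 1.28% after activation. *Tpi1* (chromosome 6, 124787549 to 124791273), triosephosphate isomerase, had 63.9, 80.9 and 132 CPM at rest and 395, 520 and 648 CPM after activation (2.57 ± 0.18). *Slc16a3*, which exports lactate, had 13.4 to 54.1 CPM and 119 to 242 CPM (2.51 ± 0.30). *Ldha*, lactate dehydrogenase A, had 448, 570 and 699 CPM and 1592, 2090 and 2618 CPM (1.86 ± 0.13). The libraries of these 3 genes did not overlap, as for 32.1% of all tested genes. The rule for the largest rises in CPM required this of *Ldha*. Other enzymes of the pathway changed by similar amounts, such as *Pgk1* (2.14 ± 0.20), *Aldoa* (1.79 ± 0.10) and *Pkm* (1.75 ± 0.13).

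The entry of glucose moved less. The transporters *Slc2a1* (0.58 ± 0.15) and *Slc2a3* (0.39 ± 0.18) and hexokinase 2, *Hk2* (0.82 ± 0.27), were not called. *Pfkfb4*, a regulator of phosphofructokinase, fell from a median of 33.5 to 12.4 CPM (-1.58 ± 0.17). *Gapdh* rose (1.84 ± 0.53), but resting library 2 had 7.71 CPM against 508 to 671 CPM in the other resting libraries, and the gene was not called within the library set that held both states (2.37, adjusted p = 0.154). Among HIF1A and its targets, 4 of 16 tested genes rose and none fell, namely *Bnip3* (2.98 ± 0.41), *Egln3* (2.62 ± 0.29), *Ankrd37* (2.56 ± 0.24) and *Hif1a* (1.56 ± 0.29).

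Synthesis of nucleotides, serine and lipids rose in part. In purine and pyrimidine synthesis 6 of 29 tested genes rose, none fell, and 20 were higher by the adjusted p alone. These 6 supply or control deoxynucleotides: *Rrm2* (1.84 ± 0.25) and *Rrm1* (1.46) of ribonucleotide reductase, *Tyms* (1.79 ± 0.24), *Tk1* (1.52 ± 0.21), *Dut* (1.25) and *Samhd1*, which degrades deoxynucleotides and had 538, 568 and 593 CPM at rest and 1473, 1741 and 2091 CPM after activation (1.64 ± 0.08). Of 15 tested genes of serine and folate metabolism, 5 rose, among them *Shmt1* (1.93 ± 0.20), *Psat1* (1.66 ± 0.15), *Phgdh* (1.21 ± 0.13) and *Mthfd2* (1.18 ± 0.09), and 2 fell, *Mthfd2l* (-1.55 ± 0.22) and *Fpgs* (-1.26 ± 0.18). The cholesterol list had 9 rises and 1 fall among 23 tested genes, with a median of 0.74. *Hmgcs1*, at the start of the pathway, had 45.7, 56.3 and 63.9 CPM and 113, 140 and 154 CPM (1.30 ± 0.09), and *Sqle* (1.47 ± 0.17) rose. The fall was that of *Abcg1*, a cholesterol exporter (-1.88 ± 0.13). In fatty acid synthesis *Scd2* (1.51 ± 0.11) and *Elovl6* (1.51 ± 0.25) rose, 2 of 14 tested. Over all tested genes 6.64% rose and 9.84% fell, so counts of 1 or 2 genes in lists of this size say little about a list. Of 8 tested polyamine genes only *Azin1* was called (1.15 ± 0.26), and *Odc1*, the rate-limiting enzyme, had medians of 78.6 and 53.2 CPM (-0.67 ± 0.14).

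The machinery of protein synthesis did not rise as a whole. Of 78 cytosolic ribosomal protein genes, none rose and 1 fell, while 57 were lower by the adjusted p alone, with a median of -0.40. Their summed share of UMI counts was 22.4% to 27.3% at rest and 19.5% to 23.0% after activation, so the groups overlapped. *Rps14* (-0.80 ± 0.10) and *Rpl12* (-0.71 ± 0.10) were lower in every activated library, and *Rpl41* was not (0.18 ± 0.12, adjusted p = 0.192). The member past the limit was *Rps27* (-1.13 ± 0.43, adjusted p = 0.0373), whose libraries ranged from 767 to 4749 CPM at rest. It was not called within the library set that held both states (adjusted p = 0.146) or when any of 7 of the 12 libraries was left out. Many ribosomal protein genes have processed copies in the genome, with which reads may be shared. Of 50 tested nucleolar factors none rose and *Imp4* fell (-1.03 ± 0.16), with *Ncl*, nucleolin, at 0.62 ± 0.09. Of 35 tested translation factors 4 fell, a share near the 9.84% of all genes, while by the adjusted p alone 14 were higher and 7 lower, with a median of 0.10. *Eif4a2* changed most (-1.65 ± 0.16). Among tRNA synthetases *Wars1* rose, from 41.5, 45.2 and 59.9 CPM to 139, 156 and 166 CPM (1.67 ± 0.09), and 13 of 19 were higher by the adjusted p alone.

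Proteasome genes shifted together by less than 2-fold. Of 35 tested, 32 were higher by the adjusted p alone with a median of 0.67, and *Psmb5*, a catalytic subunit, was called (1.04 ± 0.12). Within the library set that held both states 7 were called. Their summed share was 0.475% to 0.601% at rest and 0.827% to 0.965% after activation. The catalytic subunits of the immunoproteasome, *Psmb8* (1.18 ± 0.08) and *Psmb9* (1.09 ± 0.08), rose, whereas the class I heavy chain genes *H2-K1* (-0.35 ± 0.10) and *H2-D1* (-0.33 ± 0.08) were not called and the related *H2-Q4* fell (-1.37 ± 0.15). Close similarity of these heavy chain genes leaves the division of their reads uncertain. Amino acid transporters had 5 falls and no rise among 13 tested. *Slc3a2*, the heavy chain of the leucine transporter, had 275, 310 and 442 CPM at rest and 126, 138 and 152 CPM after activation (-1.25 ± 0.11), its partner *Slc7a5* was not called (0.50 ± 0.15), and *Slc38a2* fell (-1.33 ± 0.09).

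The list of cytoskeleton genes, in which the lectin gene *Lgals1* was also placed, included 7 rises and 1 fall among 40 tested. *Lgals1*, the lectin galectin 1, had 287, 400 and 488 CPM at rest and 1533, 1835 and 2036 CPM after activation (2.20 ± 0.14), and *Vim*, vimentin, 515, 666 and 935 CPM and 1416, 2053 and 2826 CPM (1.55 ± 0.19). *Capg* (1.16), *Tpm4* (1.39) and the tubulin genes *Tuba1b* (1.14), *Tuba1c* (1.11) and *Tubb4b* (1.02) completed the rises. *Lmna*, the A-type lamin, fell (-1.70 ± 0.26). *Actb* overlapped between the groups (-0.22 ± 0.12, adjusted p = 0.136).

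**Figure D4:**
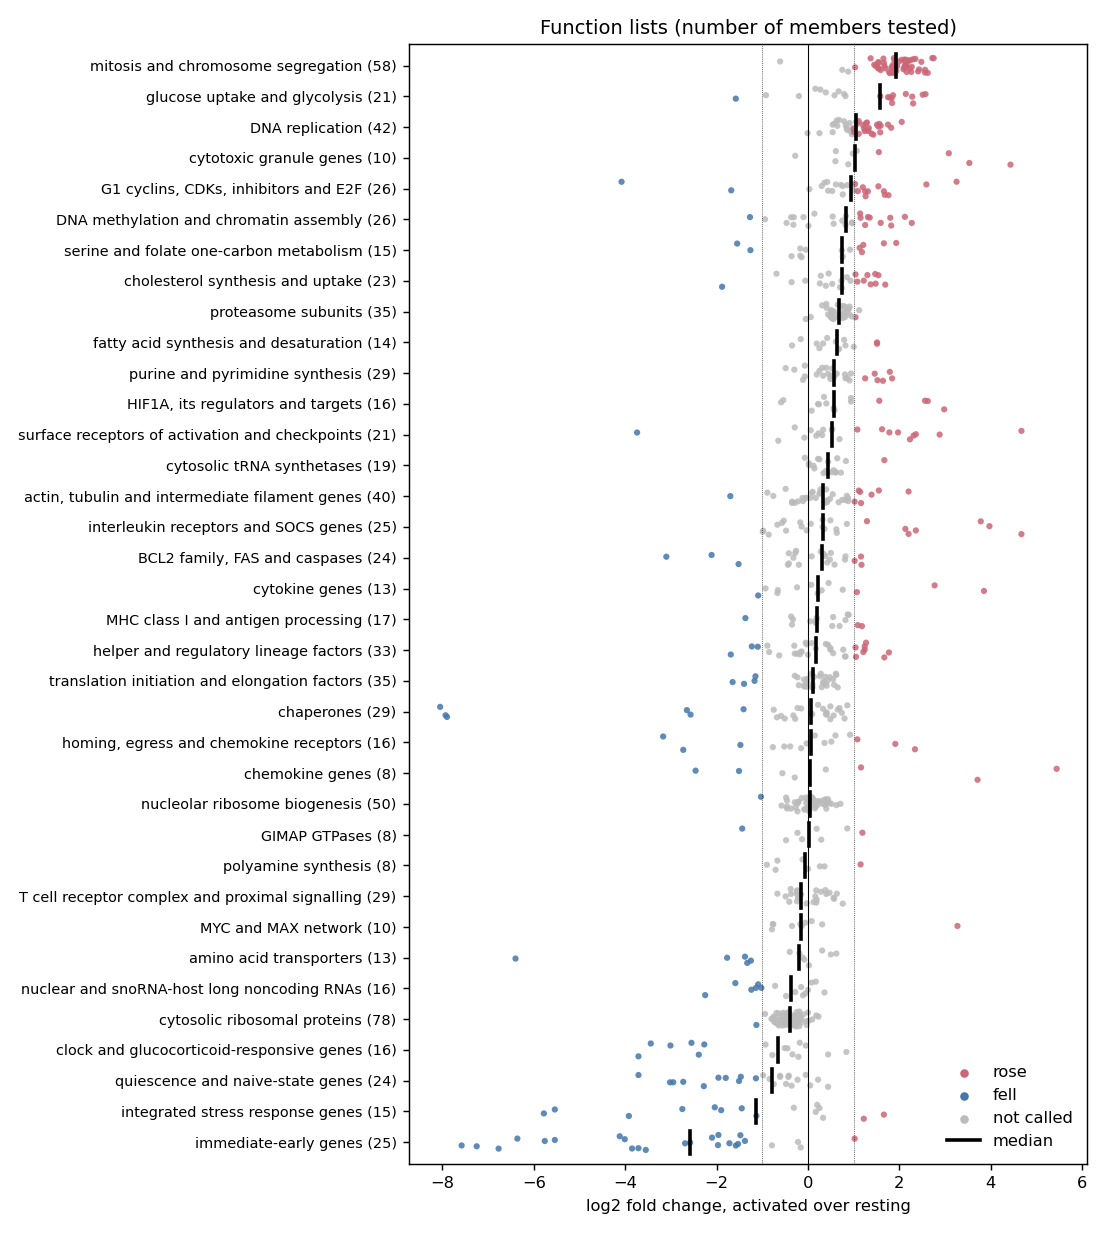
Log2 fold change of each tested member of 36 function lists (points: red rose, blue fell, grey not called) with the list's median as a bar, dotted lines at the 2-fold limits and the number of tested members in parentheses. Mitosis (median 1.93) and glycolysis (1.58) stand at the top, and integrated stress response (-1.13) and immediate-early genes (-2.58) at the bottom.

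Immediate-early genes were high at rest and low after activation. Of 27 listed, 25 were tested, 21 fell and 1 rose, with a median of -2.58. Their summed share was 1.98% to 2.51% of the UMI counts at rest and 0.239% to 0.276% after activation. *Fos* (chromosome 12, 85520658 to 85524047) had 1675, 2328 and 2856 CPM at rest and 8.46, 14.1 and 58.8 CPM after activation (-6.77 ± 0.43). Its partners *Jun* (-5.76 ± 0.22) and *Junb* (-3.85 ± 0.11) fell, and *Fosb* (-7.25 ± 0.33) and *Klf4* (-7.58 ± 0.28) fell further. *Nr4a1*, induced by the T cell receptor, had 1122, 1405 and 1620 CPM and 74.6, 108 and 133 CPM (-3.71 ± 0.14). The phosphatase *Dusp1* (-6.36 ± 0.25) and the mRNA-decay factor *Zfp36* (-4.01 ± 0.13), which end such responses, fell as well. No library overlapped between the groups for these 8 genes, as for 32.1% of all tested genes. All but *Fosb* were also named among the largest falls, where a lack of overlap was required. *Egr3* was the member that rose (1.02 ± 0.19), and it was not called within the library set that held both states (0.93, adjusted p = 0.0756) or when any of 5 of the 12 libraries was left out.

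Heat shock genes moved with the immediate-early genes, but not equally in all resting libraries. *Hspa1a* (chromosome 17, 35188166 to 35191132), the inducible HSP70, had 4099, 10247, 11717 and 5230 CPM in resting libraries 1 to 4 and 561 and 451 CPM in resting libraries 5 and 6. Activated library 5 had 115 CPM and the other activated libraries at most 0.999 CPM (-8.05 ± 1.42, adjusted p = 0.0002). *Hspa1b*, a near-identical neighbour with which reads may be divided, followed the same order (-7.90 ± 1.44). Resting libraries 1 to 4 and activated library 5 were the libraries with 2.13 to 2.24 reads per UMI, and within that set the change of *Hspa1a* was -6.06 (adjusted p = 0.001). Of 29 tested chaperone genes 6 fell, the others being *Hspb1* (-7.93 ± 1.30), *Dnajb1* (-2.65 ± 0.42), *Hsph1* (-2.57 ± 0.35) and *Hsp90aa1* (-1.41 ± 0.30). None rose, while 13 were higher by the adjusted p alone, among them the chaperonin subunits *Tcp1* (0.80 ± 0.13) and *Cct4* (0.69 ± 0.13).

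Stress and hormone response genes fell too. Of 15 tested genes of the integrated stress response, 8 fell and 2 rose. *Atf4*, its central transcription factor, had 1022, 1097 and 1203 CPM at rest and 254, 293 and 334 CPM after activation (-1.90 ± 0.08). The phosphatase subunit *Ppp1r15a* (-5.78 ± 0.23), *Atf3* (-5.54 ± 0.25) and *Ddit3* (-2.04 ± 0.12) fell, whereas *Psat1* and *Trib3* (1.22 ± 0.22) rose. Of 16 tested clock and glucocorticoid-responsive genes, 6 fell and none rose. *Tsc22d3*, the glucocorticoid-induced leucine zipper, had 451, 508 and 582 CPM at rest and 28.8, 38.3 and 50.3 CPM after activation (-3.71 ± 0.12). *Per1* (-3.44 ± 0.13) and *Ciart* (-3.01 ± 0.28) of the clock and the kinase gene *Sgk1* (-2.39 ± 0.10) fell. Among long noncoding RNAs 6 of 16 tested fell, led by the snoRNA host *Snhg12* (-2.25 ± 0.09), and *Malat1* fell with overlapping libraries (-1.14 ± 0.29).

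Of 24 tested quiescence and naive-state genes, 10 fell and none rose, with a median of -0.79, and the list shares *Klf2*, *Btg2* and *Tsc22d3* with those above. The antiproliferative gene *Tob1* had 112, 124 and 148 CPM at rest and 11.9, 14.2 and 27.0 CPM after activation (-3.02 ± 0.17), and *Btg2* had 770 and 212 CPM as medians (-1.96 ± 0.19). *Lef1*, a factor of naive T cells, fell (-1.14 ± 0.11), its relative *Tcf7* was not called (-0.42 ± 0.09), and *Bach2* had a change of 0.44 ± 0.14. Genes of the BCL2 family divided by their action only in part. The pro-death genes *Pmaip1* (NOXA, -3.10 ± 0.23), *Bbc3* (PUMA, -2.11 ± 0.11) and *Bmf* fell, while the protective *Bcl2l1* (1.16 ± 0.13) and the pro-death *Bcl2l11* (BIM, 1.17 ± 0.11) rose. In the GIMAP family *Gimap7* rose (1.19 ± 0.13) and *Gimap8* fell (-1.44 ± 0.13) among 8 tested genes. Over all tested genes 6.64% rose and 9.84% fell, so these calls say little about the family.

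The T cell receptor and its proximal signalling genes changed little. None of the 29 tested genes was called, with a median of -0.15, while 8 were higher and 6 lower by the adjusted p alone. The share that was higher was near the 27.3% of all tested genes, of which 29.6% were lower. *Trac*, the receptor's α constant region, had 1489, 1924 and 2043 CPM at rest and 1230, 1312 and 1438 CPM after activation (-0.49 ± 0.08). *Cd3e* had 345 and 266 CPM as medians (-0.25 ± 0.12, adjusted p = 0.094) and *Cd3d* 468 and 694 CPM (0.57 ± 0.10). *Cblb*, a ubiquitin ligase that dampens the signal (0.76 ± 0.13), and *Bcl10*, which links it to NF-κB (-0.67 ± 0.09), lay at the ends. The 7 markers of T cell identity together held 0.414% to 0.539% of the UMI counts at rest and 0.544% to 0.621% after activation.

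RNA of other spleen cells was present in the resting libraries and mostly lower after activation. In bulk libraries fewer cells of a type and less RNA per cell cannot be told apart. The 14 neutrophil markers summed to 0.0613% to 0.746% of the UMI counts at rest and 0.000377% to 0.00571% after activation, a ratio of means of 177. *Camp* (chromosome 9, 109676442 to 109678685), the granule peptide cathelicidin, had 828, 114, 190, 176, 1673 and 1905 CPM in resting libraries 1 to 6 and at most 9.03 CPM in an activated library (-8.42 ± 0.97). All 11 neutrophil markers that passed the filter on low counts fell. They passed through the resting libraries, as did most markers of the lists that follow, so such counts describe these lists and support nothing. Granulocyte precursor markers such as *Elane* (-6.72 ± 0.69), *Prtn3* (-6.11 ± 0.66) and *Mpo* (-4.97 ± 0.57) held 0.0187% to 0.221% of the counts at rest and 0.00108% to 0.00869% after activation.

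Erythroid markers held 0.0675% to 0.759% at rest, the highest in resting library 1, and 0.00336% to 0.0324% after activation, with 12 of 13 tested genes falling. *Hbb-bs*, adult β globin, had 81.2 to 4126 CPM at rest and 1.85 to 94.1 CPM after activation (-5.57 ± 1.05), and its ranges overlapped. With library set as a term it was not called (-3.75, adjusted p = 0.0859). Markers of monocytes and macrophages held 0.0823% to 0.302% and 0.00409% to 0.0111%, and of 20 listed 10 passed the filter and 9 of these fell. *Lyz2*, lysozyme, had 694, 1306 and 2353 CPM at rest and 8.95, 11.2 and 53.9 CPM after activation (-6.29 ± 0.52), *Csf1r* fell (-6.37 ± 0.45), and the receptor tyrosine kinase gene *Axl* had a change of 1.00 ± 0.18 just under the limit. Dendritic cell markers, led by *Cst3* (-1.57 ± 0.11), held 0.0473% to 0.0768% at rest and 0.0238% to 0.0327% after activation, and 4 of 9 passed the filter.

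B cell RNA remained in the activated libraries. The 19 B cell markers held 1.47% to 2.58% of the UMI counts at rest and 0.734% to 1.56% after activation. The immunoglobulin genes fell, *Ighm* from 7893 to 12654 CPM to 1894 to 5424 CPM (-1.59 ± 0.22) and *Igkc* from a median of 7488 to 875 CPM (-2.58 ± 0.33). The complement receptor *Cr2* (-3.52 ± 0.62) and *Fcmr* (-2.01 ± 0.37) fell with overlapping libraries. Other defining genes did not pass: *Cd79b* had medians of 229 and 269 CPM (0.16 ± 0.30, adjusted p = 0.661) and *H2-Aa* 1156 and 930 CPM (-0.30 ± 0.26, adjusted p = 0.341). *Ms4a1*, which encodes CD20, was called as higher (1.16 ± 0.35), but not within the library set that held both states (0.52, adjusted p = 0.577). Plasma cell genes fell further: *Jchain* (-3.37 ± 0.35), the receptor *Tnfrsf17* (-5.57 ± 0.51) and the immunoglobulin A constant gene *Igha*, which had 3142, 4486 and 7639 CPM at rest and 33.3, 89.4 and 151 CPM after activation (-5.75 ± 0.39).

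Markers of 4 other cell types had higher summed shares on average after activation. Of the 10 platelet, 7 NK cell and 5 basophil and mast cell markers, 4, 2 and 2 passed the filter on low counts. Those of CD8 T cells held 0.00541% to 0.0102% of the UMI counts at rest and 0.0171% to 0.0421% after activation, with *Cd8a* at 15.1, 17.9 and 39.2 CPM and 60.4, 109 and 152 CPM (2.35 ± 0.29) and *Cd8b1* at a change of 1.78 ± 0.25. Platelet markers held 0.000849% to 0.00673% and 0.00801% to 0.0587%, and most of this was *Pf4*, a chemokine of platelet granules, with 1.01, 6.57 and 36.9 CPM and 62.6, 122 and 437 CPM (3.77 ± 0.61). The basophil gene *Mcpt8* had 2.68, 6.74 and 20.9 CPM and 7.04, 37.8 and 95.6 CPM (2.16 ± 0.57), and *Prss34* rose with it (2.00 ± 0.61), both with overlapping libraries. The NK cell list held 0.00163% to 0.00389% and 0.005% to 0.0414%, and in it *Gzma* rose and the surface receptor *Klrb1c* fell from a median of 8.23 to 1.96 CPM (-1.99 ± 0.31). *Gzma* is also made by activated T cells, and without it the NK share was lower after activation. Activated library 1 had the highest activated values of *Gzmb*, *Pf4*, *Mcpt8* and the NK list. Markers of regulatory T cells (0.00294% to 0.00434% at rest and 0.0036% to 0.00584% after activation) and of stromal and endothelial cells (0.0131% to 0.0171% and 0.0117% to 0.0159%) overlapped between the groups, and *Ikzf4*, of the first list, rose (1.24 ± 0.17).

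**Figure D5:**
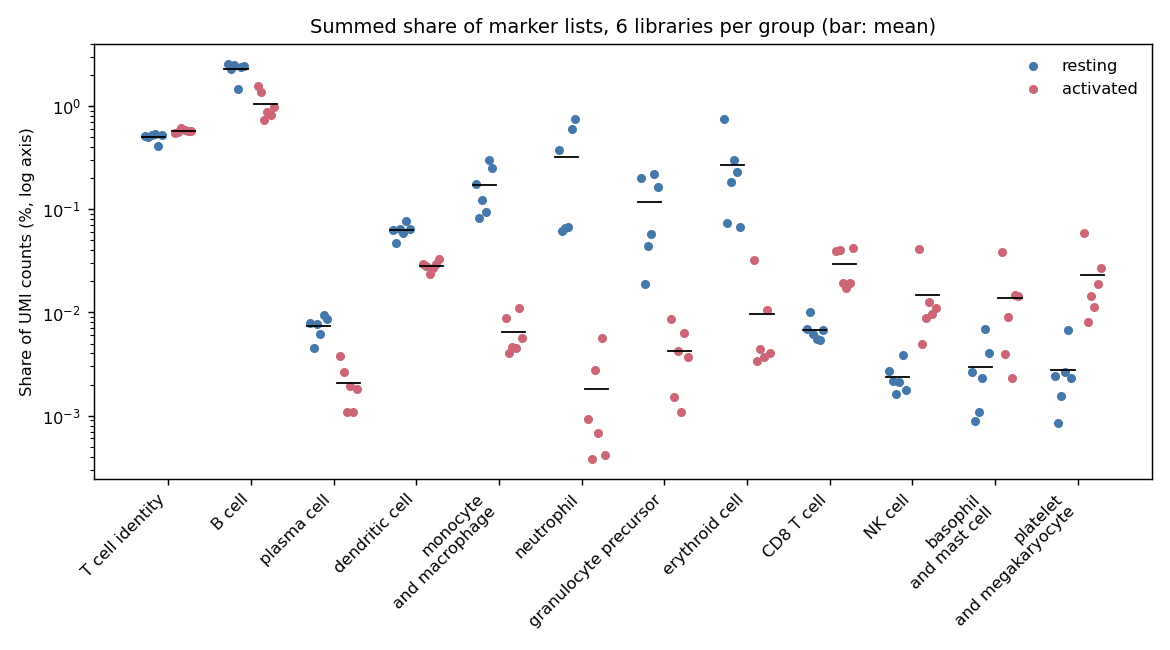
Summed share of UMI counts (%, log axis) of 12 marker lists in each of the 6 resting (blue) and 6 activated (red) libraries, with the group mean as a bar. Neutrophil markers go from 0.32% to 0.00181% on average, B cell markers from 2.28% to 1.06%, and CD8 T cell and platelet markers lie higher after activation.

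Outside these lists, some of the largest changes belonged to genes not usually named for T cells. *Krt80*, a keratin, had 10.3, 16.8 and 29.0 CPM at rest and no count in any activated library. Its 414 resting counts make it at least 130-fold lower after activation, against a floor of 3 counts over the group. *Tg*, which encodes thyroglobulin, rose from 1.98, 3.44 and 4.95 CPM to 44.3, 54.5 and 58.3 CPM (3.90 ± 0.17), and *Mgarp* rose from a median of 1.62 CPM (4.05 ± 0.41). The interferon-inducible GTPase genes *Gbp2*, from 23.6, 37.3 and 42.1 CPM to 270, 471 and 501 CPM (3.59 ± 0.16), and *Igtp*, from a median of 161 to 805 CPM (2.29 ± 0.07), rose. *Ly6a* (Sca-1) rose from a median of 242 to 1213 CPM (2.35 ± 0.15), *Mif* from 344 to 1038 CPM (1.54 ± 0.10) and *Txn1*, thioredoxin, from 529 to 1396 CPM (1.32 ± 0.15). These 8 genes were named among genes whose groups did not overlap, so their lack of overlap follows from that choice.

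The mtDNA-NZB libraries, 6 at rest and 6 activated by the same protocol, served as samples that the comparison had not used. In them 886 of 9574 tested genes rose (9.25%) and 1050 fell (11%). Of the 667 genes that rose in mtDNA-B6 cells, 623 were tested there, 613 had the same sign and 497 were called. Of the 988 that fell, 761 were tested, 755 had the same sign and 609 were called. Without 1 mtDNA-NZB library of far fewer counts than the others, 926 genes rose and 1143 fell there, and 512 of the mtDNA-B6 rises and 672 of the falls were called. The log2 fold changes stood close for *Il2ra* (4.67 in mtDNA-B6 and 5.01 in mtDNA-NZB cells), *Top2a* (2.62 and 3.31), *Ldha* (1.86 and 1.91), *Klf2* (-2.73 and -2.54) and *Junb* (-3.85 and -3.71). They were farther apart for *Mcpt8* (2.16 and 0.44), *Hspa1a* (-8.05 and -5.25), *Bcl2l11* (1.17 and -0.12) and *Egr3* (1.02 and 0.05). All these genes are picked examples. List medians, over tested members that were not all the same, were close for ribosomal proteins (-0.40 and -0.33) and the proteasome (0.67 and 0.82). They differed more for mitosis (1.93 and 2.85), glycolysis (1.58 and 0.88), immediate-early genes (-2.58 and -3.38) and cytokine genes (0.21 and -0.29). In the fit of all 24 libraries no gene of 10566 had a different response between haplotypes at an adjusted p of 0.05 (smallest 0.113), and 1512 had an unadjusted p under 0.05. That fit kept mtDNA-NZB resting library 2, with 51409 UMI counts, and mtDNA-NZB activated library 1, with 641467. It was not repeated without them, so the lack of a called gene does not show equal responses.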

How the data were processed

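RNA of resting and activated Tconv cells was measured in 12 mtDNA-B6 libraries, with 12 mtDNA-NZB libraries used for comparison. Before deposit, per the study's methods and the labels, the authors trimmed reads with cutadapt, dropped those under 30 bases, used STAR to map the rest to the 1000 bases at the 3′ ends of genes in GRCm39 (Ensembl 106), counted them per gene with htseq-count, and deduplicated and saturation-corrected the UMIs. Strand was not named. The authors deposited these UMI counts as whole numbers without scaling, together with another table whose larger values were read as the counts before deduplication. 1 column of that table matched no sample and was not used. Reading only 3′ ends divides reads among genes that overlap there or are near copies. Of 167 named genes, 43 overlap another gene in their last 1000 bases, 26 of them a protein-coding one, among them *Tpi1*, *Slc16a3*, *Gapdh*, *Klf2*, *Junb*, *Igtp*, *Mxd3*, *Ube2c*, *Cdc20*, *Ccna2*, *Ezh2*, *Ppp1r15a* and *Ddit3*.

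Of 55414 listed genes, 25030 had a count. Positions are from GENCODE M39 (GRCm39). Counts were scaled by TMM, filtered by filterByExpr and tested with edgeR 4.0.16 (quasi-likelihood) and limma 3.58.1 in R 4.3.3 over the 12 libraries, and p-values were adjusted by Benjamini-Hochberg across every tested gene. A gene was called past a 2-fold change with an adjusted p no higher than 0.05. The standard error was the log2 fold change divided by the square root of F. The fit was tested on simulated data. Each pair of replicates differed beyond counting error, with a chi-square statistic 4.41 or more times its degrees of freedom. Library sets were divided at the 2 widest gaps in reads per UMI over 24 libraries.

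The function and marker lists and the members were chosen with earlier results of these data known, so lists are described by counts, medians and summed shares without a test of their own, and the planned permutation tests of summed shares are not printed. Named genes were the 15 largest rises and falls by fold among called genes of at least 10 CPM without overlap between groups, the 15 largest by CPM, the 3 members of each function list with the largest change and those called against its direction, the markers, and other list members as examples, and a few genes are not reported here. Alternatives were DESeq2 1.42.0 with the study's settings, other scaling, filters, fold limits, the second count table, other sets of libraries, replicate blocks, thinning to the smallest total and leaving out each library, and 4 that leave out resting libraries or library 5 of each group were added after the data were seen.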

Additional observations from a re-analysis of the deposited data

Results flagged for a closer look

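In groups of 6 libraries, the distance of the lowest or highest library from the others was compared with the group's range. It was more than 0.625 of the range in 35 of 196 groups of values. For independent, normally distributed values chance gives about 1 in 20. Shares of lists and genes of those lists come from the same libraries, so the groups are not independent and that rate does not apply to them. No explanation was tested.

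Activated library 5, the only activated library with 2.13 to 2.24 reads per UMI, was highest in *Hspa1a* (115 CPM, others 0 to 0.999), *Hspa1b* (195, others 0.333 to 2.00), *Fos* (58.8, others 8.46 to 17.1), *Dusp1* (33.8, others 9.99 to 18.1), *Lyz2* (53.9, others 8.95 to 12) and *Camp* (9.03, others 0 to 2.00). All 6 genes fell on activation.

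Activated library 1 was highest in *Gzmb* (1856 CPM, others 377 to 751), *Pf4* (437, others 62.6 to 199) and *Hbb-bs* (94.1, others 1.85 to 35.1). Its share of UMI counts was also the highest for the chemokine genes (0.125%), the cytotoxic granule genes (0.534%), and the NK cell (0.0414%), basophil and mast cell (0.0388%) and erythroid markers (0.0324%).

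Resting library 5 was highest in *Gzmb* (119 CPM, others 12.6 to 31.3), *Mcpt8* (20.9), *Pf4* (36.9) and *Tpi1* (132). Its shares were the highest for platelet markers (0.00673%) and for the BCL2 family, FAS and caspases (0.166%), and the lowest for the T cell receptor list (1.06%, others 1.26 to 1.34%) and for T cell identity (0.414%, others 0.506 to 0.539%).

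Resting library 2 was lowest in *Gapdh* (7.71 CPM, others 508 to 671) and highest in *Cd8a* (39.2), in the CD8 T cell share (0.0102%) and in *Ms4a1* (68.4 CPM, others 13.1 to 25.4). Resting library 1 was highest in *Hbb-bs* (4126 CPM, others 81.2 to 1088) and in the erythroid share (0.759%).

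Single values apart were those of resting library 3 in *Ccnd1* (17.8 CPM, highest) and *Gbp2* (23.6 CPM, lowest), of resting library 4 in the B cell share (1.47%, lowest), and of resting library 6 in the homing list (0.711%, highest). Activated library 3 was highest in *Cd3e* (358 CPM) and the cytoskeleton list (4.79%), and activated library 6 in the long noncoding RNAs (0.24%).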

How the results depend on the processing

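Against 1655 genes called (667 rises and 988 falls), DESeq2 with the study's settings called 2688, 942 of them rises and 1746 falls. No filter on low counts gave 3288 (1171 and 2117) and a stricter filter 1040 (448 and 592). Without a fold limit 5711 genes were called (2737 and 2974), and at a log2 fold change of at least 2, 548 (142 and 406). Leaving out each of the 12 libraries in turn gave 1669 to 1798 genes, with 649 to 724 rises and 995 to 1097 falls. Another scaling, all 24 libraries, the second count table, thinning, library set as a term, and leaving out resting libraries of a set kept the totals within 1.5 times.

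Where the labels' description numbers were shared (5 pairs), same-numbered libraries correlated in their deviations from group means at -0.065 to 0.262, so the numbers were not taken as pairs. A replicate block by description number called 1597 genes (621 and 976), and by title number 1641 (662 and 979).

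No named gene changed sign with its call. Calls were lost 127 times in 2986 combinations of a named gene and an alternative other than leaving out a single library, and 37 times in 2004 that left out a library. *Gapdh*, *Rps27*, *Ms4a1*, *Tnf*, *Egr3*, *Ccl4* and *Tox2* lost theirs both within the library set that held both states and with library set as a term. Without the most abundant gene of each marker list, the activated share minus the resting share reversed for Treg (-0.000219%) and NK cell markers (-0.000644%). The cause of these changes was not tested. The number of libraries with both states in a set, 4 resting and 1 activated, limits the within-set values, and genes at a few counts per library carry a large counting error.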
